A study of Canis lupus familiaris with 6 samples.

Results

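The mitochondrial carrier family SLC25 was examined in cells of CMM10, a melanoma line from the dog, under hypoxia and under normoxia. Its members were taken as the genes named SLC25A followed by a number, without the carnitine carrier SLC25A20, and 39 of the 29822 genes in the files met this rule. Transcripts were measured by RNA sequencing in 3 hypoxia and 3 normoxia libraries of this line, and the labels give no oxygen level, no time under hypoxia and no statement that replicates were separate cultures. The p-values below therefore measure the spread between these libraries, which may be technical. A further 8 carriers, namely SLC25A3, SLC25A10, SLC25A22, SLC25A24, SLC25A28, SLC25A31, SLC25A51 and SLC25A52, had no row under these symbols and were not analysed here.

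SLC25 proteins are small, related transporters, most of which sit in the inner mitochondrial membrane and exchange one solute for another between the cytosol and the matrix. They bring in ADP, phosphate, amino acids, nucleotides and cofactors, and they export ATP, citrate and other metabolites, so that the respiratory chain, the TCA cycle and mitochondrial DNA and RNA synthesis depend on them. They are made in the cytosol and reach the inner membrane by way of the TOM pore, small TIM chaperones and the TIM22 complex. The substrates named below are those known from the human and mouse proteins.

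Gene reads numbered 27272709 to 28804337 in the hypoxia libraries and 23196647 to 27012866 in the normoxia libraries, with 23.6% to 25.2% of them in introns. Levels within a gene are given as CPM, read counts relative to the gene reads of the library after TMM scaling. TMM sets library sizes on the assumption that most genes do not differ between libraries. As a check of the labels, CA9, a carbonic anhydrase known to respond to hypoxia, averaged 409 ± 4.84 CPM under hypoxia and 29.9 ± 1.00 CPM under normoxia (SD, n = 3 each). Some of the markers that define melanocytes were present and others nearly absent. The transcription factor SOX10 averaged 65.6 ± 5.76 CPM under hypoxia and 49.9 ± 2.92 CPM under normoxia. MITF, a regulator of pigment genes, averaged 28.9 ± 2.04 CPM under hypoxia and 30.6 ± 1.51 CPM under normoxia. DCT, a melanin enzyme, averaged 37.6 ± 1.64 CPM under hypoxia and 44.2 ± 1.47 CPM under normoxia. TYRP1 had 2 reads under hypoxia and 2 under normoxia, and TYR, the enzyme that starts melanin synthesis, had 9 reads under hypoxia and 17 under normoxia. The 10 melanocyte markers summed to 161 to 165 CPM in the hypoxia libraries and 150.2 to 157 CPM in the normoxia libraries, with 1 of 8 tested members called higher and 1 lower. The 6 leukocyte markers summed to 1.54 to 3.40 CPM under hypoxia and 1.49 to 2.04 CPM under normoxia, and CD3E had 0 reads under hypoxia, which allows up to 0.0363 CPM over the 3 libraries (3 reads, counting error only), and 2 under normoxia. Some keratinocyte and fibroblast markers were high, others were low, and not all moved the same way with the condition. The 4 keratinocyte markers with a row, with 2 called higher and 2 lower, summed to 4232 to 4907 CPM under hypoxia and 1084 to 1113 CPM under normoxia, nearly all of it KRT14, which averaged 4456 ± 369 CPM under hypoxia and 874 ± 12.2 CPM under normoxia. The KRT14 model is 109520 bases long and overlaps KRT9, so that its reads need not be of KRT14 alone. The other marker called higher, TP63, had 97.0% of its reads in introns and was lower from exon reads (log2 fold change -1.37 ± 0.376, edgeR adjusted p = 0.00276). KRT10 and EPCAM were called lower (log2 fold change -0.45 ± 0.050 and -0.15 ± 0.042, edgeR adjusted p = 4.47e-09 and 0.00342). The 7 fibroblast markers, with 3 of 6 tested members called higher and 0 lower, summed to 5779 to 5969 CPM under hypoxia and 4380 to 4681 CPM under normoxia, mostly COL1A2. Calls in each of these marker lists rest on few genes, and over all genes tested 24.5% were called higher and 24.4% lower. The part of the markers in the carrier results was not tested. In bulk RNA, fewer cells of a type and less RNA per cell cannot be told apart.

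Carrier transcripts were more often lower than higher under hypoxia. SLC25A36, a carrier of pyrimidine nucleotides, had the largest rise, while SLC25A33, which also carries pyrimidine nucleotides, fell, and the ADP/ATP exchanger SLC25A5 and the aspartate/glutamate carrier SLC25A13 fell. Of the 39 members, 36 passed the filter on low counts, and 24 of these were called by edgeR's quasi-likelihood test with a Benjamini-Hochberg adjusted p below 0.05 over all 15397 genes tested, against a background of 49.0% of all genes called. Under hypoxia 17 members were lower, or 47.2% of those tested, where 24.4% of all genes tested were lower. Another 7 members were higher, or 19.4%, where 24.5% of all genes tested were higher. The median log2 fold change of hypoxia over normoxia was -0.19 over the tested members and 0.00 over all genes tested. The CPM values of the conditions did not overlap in 23 of the 36 tested members, or 63.9%, against 55.3% of all genes tested. Most members changed by less than 0.5 on the log2 scale, but the median absolute log2 change was 0.31 over the tested members and 0.23 over all genes tested. Of the 36 tested members, 3 were called with a log2 change of at least 0.5, against 11.3% of all genes tested. Another 6 of the 36 were called with one of at most -0.5, a larger share than the 4.10% of all genes tested. Counts within the substrate groups below rest on few members and are descriptions, to be read against the same shares of all genes.

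The count of rises changed with the processing. With total library size as the only scaling, 3 members were higher and 20 lower, so that rises made up 13.04% of calls in place of 29.2%. Over all genes, rises were 38.8% of calls with that scaling and 50.1% with TMM. Only 4 members were called higher when hypoxia replicate 3, normoxia replicate 1, normoxia replicate 2 or normoxia replicate 3 was left out. Over all genes, 3416 to 3598 were called higher in these fits, in place of 3778. From exon reads alone, 2 members were higher and 17 lower.

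**Figure D1:**
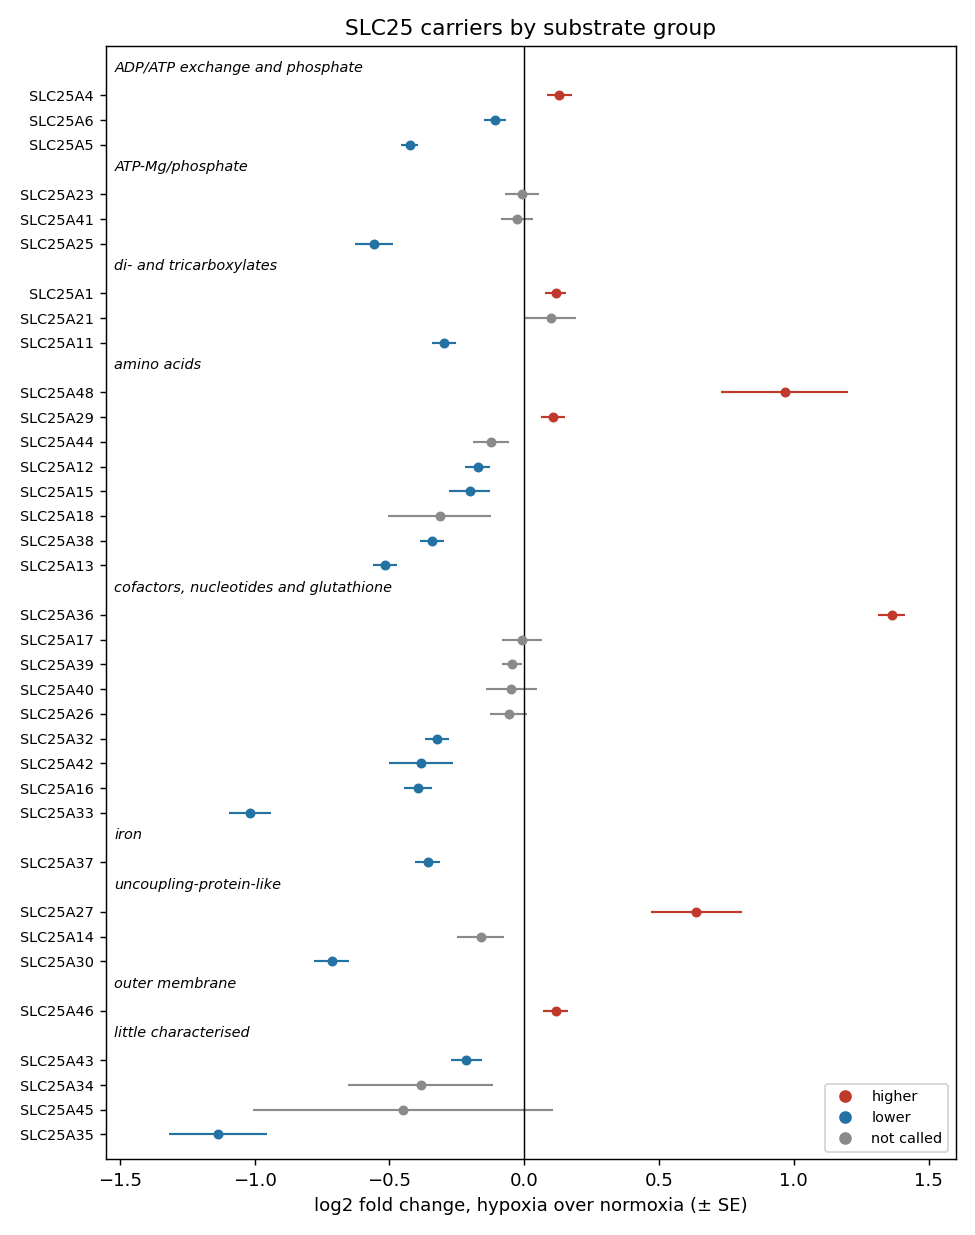
Log2 fold change of hypoxia over normoxia (± SE of the edgeR fit, 3 libraries a group) for 35 of the 36 tested SLC25 carriers, grouped by substrate, with colours for the call at an adjusted p of 0.05. SLC25A36 stands alone at 1.36 on the right, and most called members lie on the left of 0.

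Levels were compared between genes as deposited TPM, which are reads per exon length. SLC25A6 was highest, with a mean of 1159.6 TPM over the 6 libraries, followed by SLC25A5 with 699, SLC25A39 with 223, SLC25A1 with 205 and SLC25A4 with 89.3 TPM. SLC25A5 and SLC25A6 together held 56.9% of the TPM of all 39 members. Among the 36 tested members, 11 were at 50 TPM or more, 20 lay between 5 and 50 TPM, and 5 were below 5 TPM. Ranges over the 6 libraries were apart at 5 of the 35 steps in this order: between SLC25A6 and SLC25A5, SLC25A5 and SLC25A39, SLC25A1 and SLC25A4, SLC25A26 and SLC25A42, and SLC25A18 and SLC25A27. All other neighbours overlapped.

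**Figure D2:**
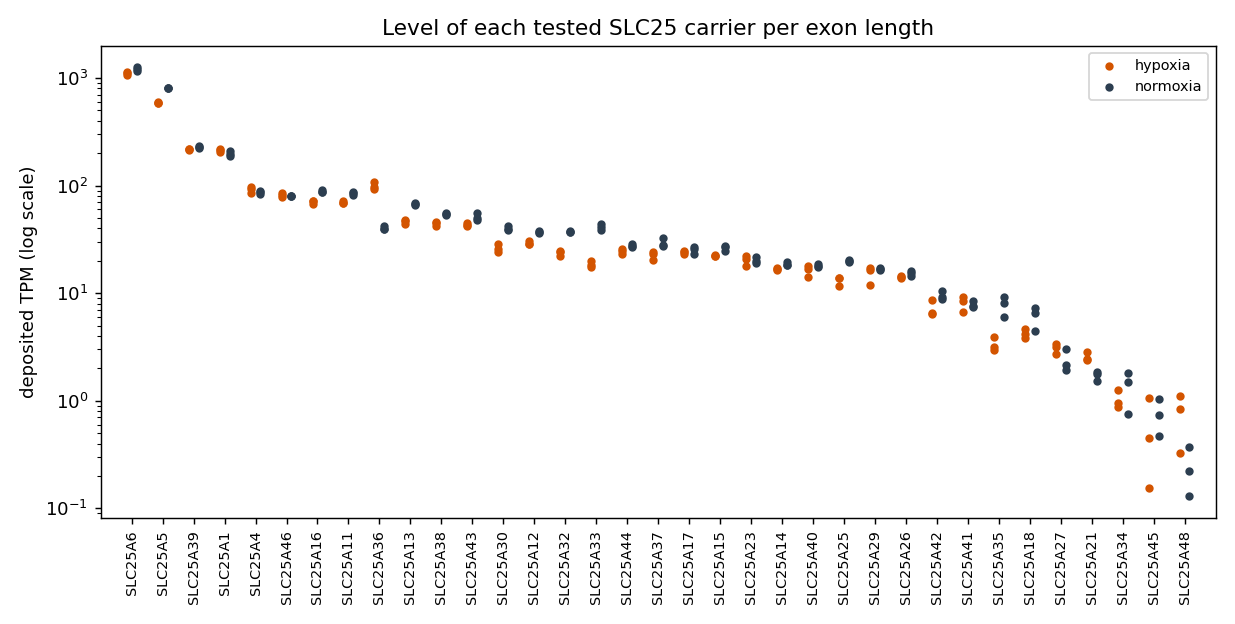
Deposited TPM on a log axis in each hypoxia (orange) and normoxia (dark) library for 35 of the 36 tested carriers, in order of their mean. The level spans from 1160 TPM for SLC25A6 to 0.497 TPM for SLC25A48, SLC25A36 lies higher under hypoxia, and SLC25A33 and SLC25A35 lie lower.

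The 3 members below the filter had few reads. SLC25A2, an ornithine carrier, had 4 reads, all in hypoxia replicate 1, and 0 reads in the normoxia libraries, which allows up to 0.0385 CPM over the 3 libraries (3 reads, counting error only). SLC25A47, a liver carrier, had 12 reads under hypoxia and 4 under normoxia, and SLC25A53 had 26 reads under hypoxia and 27 under normoxia.

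The ADP/ATP exchangers SLC25A4, SLC25A5 and SLC25A6 swap matrix ATP for cytosolic ADP, and 2 of the 3 fell while 1 rose. SLC25A5 (chromosome X, 91523643 to 91526479 of CanFam3.1) had 373, 364 and 372 CPM in the hypoxia libraries, against 503, 501 and 485 CPM in the normoxia libraries. Every hypoxia library lay below every normoxia library (log2 fold change -0.43 ± 0.033, edgeR adjusted p = 1.51e-12), and 99.97% of its reads mapped uniquely. SLC25A6 (chromosome X, 912938 to 915257) had 616, 592 and 563 CPM in the hypoxia libraries, against 645, 671 and 594 CPM in the normoxia libraries. Here the conditions overlapped, since normoxia replicate 3 lay below hypoxia replicate 1 (log2 fold change -0.11 ± 0.041, edgeR adjusted p = 0.032). That call was lost without hypoxia replicate 2, hypoxia replicate 3, normoxia replicate 1 or normoxia replicate 2 (log2 fold change -0.07 to -0.11, edgeR adjusted p 0.0844 to 0.202; adjusted p 4.64e-04 to 0.449 over all its 15 alternatives). SLC25A4, the exchanger typical of heart and muscle, had 106, 94.1 and 104 CPM under hypoxia, against 92.8, 95.0 and 90.3 CPM under normoxia, and hypoxia replicate 2 lay within the normoxia range (log2 fold change 0.13 ± 0.046, edgeR adjusted p = 0.0194). The rise of SLC25A4 was lost when scaled by library size alone (0.06, edgeR adjusted p = 0.256), from exon reads only (0.12, edgeR adjusted p = 0.0656) and without hypoxia replicate 1, hypoxia replicate 3, normoxia replicate 1 or normoxia replicate 3 (0.09 to 0.13, edgeR adjusted p 0.0511 to 0.147; adjusted p 0.00273 to 0.256 over all its 15 alternatives). The model of SLC25A4 overlaps CFAP97, and 73.5% of its reads were unique. The 3 exchangers made up 58.8% ± 0.50 of the TPM of all members under hypoxia and 60.4% ± 0.79 under normoxia (SD, n = 3 each, not tested).

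The ATP-Mg/phosphate carriers adjust the adenine nucleotide pool of the matrix, and 1 of 3 changed. SLC25A25 (chromosome 9, 55360043 to 55394519), which is regulated by calcium, had 24.4, 21.4 and 21.8 CPM in the hypoxia libraries, against 35.2, 31.0 and 33.3 CPM in the normoxia libraries. The conditions did not overlap (log2 fold change -0.56 ± 0.072, edgeR adjusted p = 8.19e-08). SLC25A23, the highest of the group in TPM, had 34.0, 34.0 and 31.8 CPM under hypoxia, against 32.3, 33.2 and 35.03 CPM under normoxia. The ranges overlapped in part (log2 fold change -0.01 ± 0.063, edgeR adjusted p = 0.942). SLC25A41 was also not called (-0.03), and introns held 86.4% of its reads.

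Carriers of di- and tricarboxylates link the TCA cycle to the cytosol, and 1 of 3 rose, 1 fell and 1 was not called. SLC25A1, the citrate carrier that supplies cytosolic acetyl-CoA, had 131, 131 and 126 CPM in the hypoxia libraries, against 119, 117 and 122 CPM in the normoxia libraries. All hypoxia libraries were above all normoxia libraries, by a small margin (log2 fold change 0.12 ± 0.039, edgeR adjusted p = 0.0139). This call was lost when scaled by library size alone (0.05, edgeR adjusted p = 0.298) and without hypoxia replicate 1, hypoxia replicate 2 or normoxia replicate 2 (0.10 to 0.11, edgeR adjusted p 0.0540 to 0.0668; adjusted p 0.00688 to 0.700 over all its 15 alternatives). SLC25A11, the oxoglutarate/malate carrier of the malate-aspartate shuttle, had 80.3, 82.6 and 78.8 CPM under hypoxia, against 98.7, 102 and 95.8 CPM under normoxia, without overlap (log2 fold change -0.30 ± 0.044, edgeR adjusted p = 1.02e-06). Its model overlaps ENO3 and RNF167. SLC25A21, the oxodicarboxylate carrier, was not called (0.10), and introns held 90.8% of its reads. From exon reads it changed by 0.61 ± 0.31 and was not called either (edgeR adjusted p = 0.0992).

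Among carriers grouped with amino acids, 4 of 8 tested members fell and 2 rose, where 24.4% of all genes tested were lower and 24.5% higher, so that rises were as frequent as over all genes. SLC25A13 (chromosome 14, 21296512 to 21482236) is citrin, an aspartate/glutamate exchanger of the malate-aspartate shuttle and the highest of this group in TPM. It had 74.8, 68.9 and 76.1 CPM in the hypoxia libraries, against 104, 106 and 105 CPM in the normoxia libraries. The normoxia libraries lay close together and all above the hypoxia libraries (log2 fold change -0.52 ± 0.045, edgeR adjusted p = 2.58e-11). SLC25A12, the other aspartate/glutamate exchanger, also fell (log2 fold change -0.17 ± 0.048, edgeR adjusted p = 0.00302), and this call was lost without hypoxia replicate 1 (-0.12, edgeR adjusted p = 0.0504; adjusted p 1.59e-05 to 0.795 over all its 15 alternatives). From exon reads SLC25A12 changed by -0.31 ± 0.058, and its long model, with 52.4% of its reads in introns, overlaps HAT1 and METAP1D.

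SLC25A38, a glycine carrier needed for haem synthesis, averaged 69.7 ± 1.80 CPM under hypoxia and 88.4 ± 1.11 CPM under normoxia (log2 fold change -0.34 ± 0.045, edgeR adjusted p = 1.22e-07). SLC25A15, the ornithine carrier of the urea cycle, also fell (log2 fold change -0.20 ± 0.075, edgeR adjusted p = 0.0239), but its call was lost with DESeq2 (DESeq2 adjusted p = 0.0505) and without hypoxia replicate 1, hypoxia replicate 2, normoxia replicate 1 or normoxia replicate 2 (-0.15 to -0.20, edgeR adjusted p 0.0569 to 0.157; adjusted p 0.003 to 0.844 over all its 15 alternatives). SLC25A48 (chromosome 11, 23761858 to 23852384), linked to choline import, rose from few reads and had 2.77, 3.30 and 3.02 CPM in the hypoxia libraries, against 1.28, 2.00 and 1.34 CPM in the normoxia libraries. The conditions did not overlap (log2 fold change 0.97 ± 0.24, edgeR adjusted p = 9.43e-04), yet the total was only 250 reads under hypoxia and 121 under normoxia, 87.1% of them in introns, and the exon reads were too few to be tested. SLC25A29, a carrier of basic amino acids, was called higher just inside the threshold (log2 fold change 0.11 ± 0.045, edgeR adjusted p = 0.0494), with 86.5% of its reads in introns and an overlap with YY1. From exon reads it pointed the other way (-0.11 ± 0.11, edgeR adjusted p = 0.414), and the call was lost with DESeq2, without the filter, when scaled by library size alone (0.04, edgeR adjusted p = 0.491) and without any library but hypoxia replicate 1 (0.07 to 0.11, edgeR adjusted p 0.0616 to 0.288; adjusted p 0.0161 to 0.491 over all its 15 alternatives). SLC25A44, a carrier of branched-chain amino acids, was not called (-0.12). It was called lower when scaled by library size alone (-0.19, edgeR adjusted p = 0.0193; adjusted p 0.0193 to 0.638 over all its 15 alternatives). SLC25A18, a glutamate carrier, was not called either (-0.31), though it was without normoxia replicate 2 (-0.49, edgeR adjusted p = 0.0472; adjusted p 0.0472 to 0.523 over all its 15 alternatives).

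The group of cofactor, nucleotide and glutathione carriers held the largest rise of all members and the second lowest log2 fold change, both in carriers of pyrimidine nucleotides, which supply the matrix for DNA and RNA synthesis. SLC25A36 (chromosome 23, 36922994 to 36948975) had 146, 148 and 161 CPM in the hypoxia libraries, against 56.2, 56.9 and 64.0 CPM in the normoxia libraries. All hypoxia libraries lay far above all normoxia libraries (2.57-fold, log2 fold change 1.36 ± 0.050, edgeR adjusted p = 3.95e-19). SLC25A33 (chromosome 5, 62790157 to 62825388) had 13.8, 14.0 and 13.6 CPM in the hypoxia libraries, against 26.7, 28.5 and 28.6 CPM in the normoxia libraries. All hypoxia libraries lay below all normoxia libraries (0.494-fold, log2 fold change -1.02 ± 0.076, edgeR adjusted p = 6.57e-13). Neither model overlaps another gene, and introns held 66.2% of the reads of SLC25A36 and 27.3% of those of SLC25A33.

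On the TPM scale the pair had like levels under normoxia and unlike levels under hypoxia. SLC25A36 had 92.1, 98.1 and 108 TPM under hypoxia, against 39.3, 39.4 and 41.9 TPM under normoxia. SLC25A33 had 18.4, 19.8 and 17.4 TPM under hypoxia, against 39.0, 41.3 and 43.9 TPM under normoxia. Under normoxia the ranges of SLC25A36 and SLC25A33 overlapped, and under hypoxia every value of SLC25A36 was above every value of SLC25A33. The changes were seen in exon reads (SLC25A36 1.34 ± 0.066, SLC25A33 -1.12 ± 0.092) and in intron reads (SLC25A36 1.39 ± 0.058, SLC25A33 -0.71 ± 0.14).

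**Figure D3:**
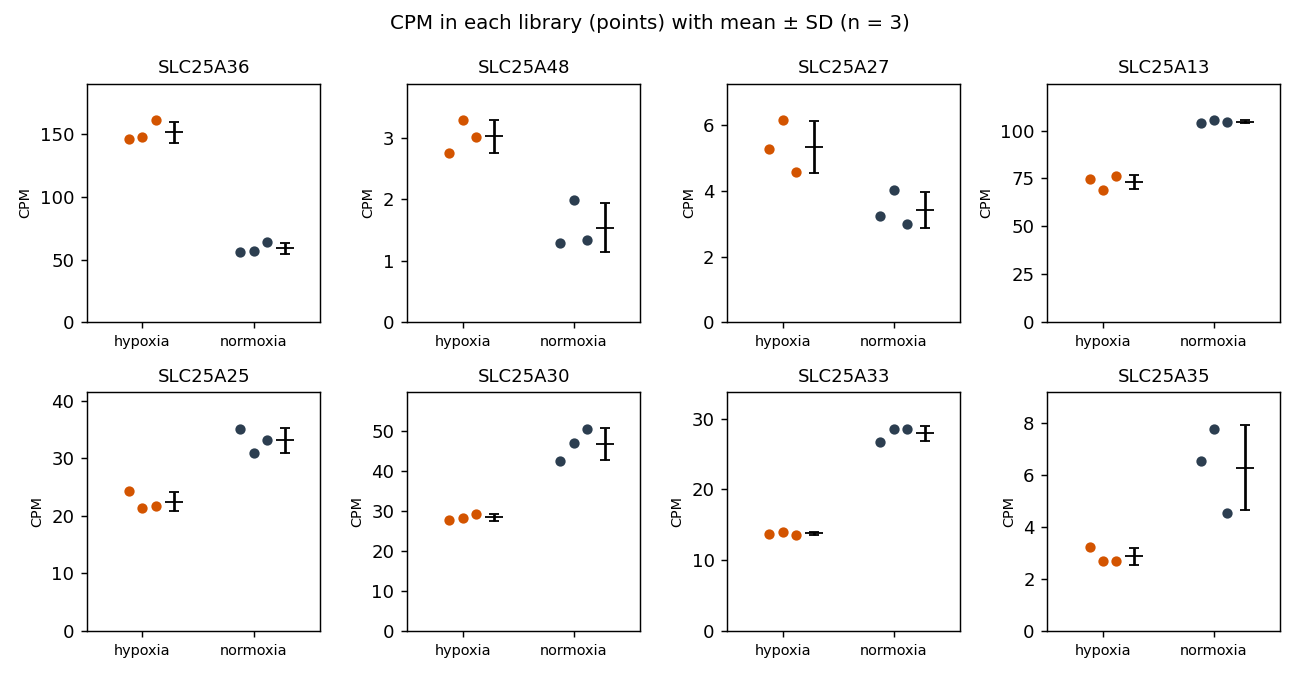
CPM in each library (points) with the mean and SD of 3 libraries for 8 carriers called with an absolute log2 fold change of at least 0.5, hypoxia left of normoxia, each axis starting at 0. The conditions are apart in all 8 panels, with a narrow gap for SLC25A27.

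SLC25A16, linked to coenzyme A, fell (log2 fold change -0.39 ± 0.052, edgeR adjusted p = 1.43e-07), as did SLC25A42, a coenzyme A carrier (log2 fold change -0.38 ± 0.12, edgeR adjusted p = 0.00863). The call of SLC25A42 was lost without hypoxia replicate 1, hypoxia replicate 2 or normoxia replicate 1 (-0.27 to -0.32, edgeR adjusted p 0.0542 to 0.0914; adjusted p 3.84e-04 to 0.155 over all its 15 alternatives). SLC25A32, a folate carrier, fell, with a log2 fold change of -0.32 ± 0.044 from all gene reads and -0.64 ± 0.062 from exon reads, and its model of 186265 bases overlaps 5 other genes, DCAF13 among them.

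The glutathione carrier SLC25A39 was the highest of this group in TPM and had 191, 187 and 183 CPM in the hypoxia libraries, against 197, 196 and 185 CPM in the normoxia libraries. The ranges overlapped (log2 fold change -0.04 ± 0.037, edgeR adjusted p = 0.341), and it was called lower when scaled by library size alone (-0.11, edgeR adjusted p = 0.0120; adjusted p 0.012 to 0.801 over all its 15 alternatives). SLC25A40, also a glutathione carrier, was at -0.05, SLC25A26, which imports S-adenosylmethionine, at -0.06, and SLC25A17, a peroxisomal carrier, at -0.01, and none of these was called.

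The iron carrier SLC25A37, mitoferrin, fell (chromosome 25, 33894132 to 33965398). It had 81.6, 77.8 and 82.3 CPM in the hypoxia libraries, against 104, 109 and 96.3 CPM in the normoxia libraries. All hypoxia libraries were lower (log2 fold change -0.36 ± 0.047, edgeR adjusted p = 1.09e-07), with 84.6% of its reads in introns and a like change from exon reads (-0.34 ± 0.098).

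The uncoupling-protein-like carriers went in both directions. SLC25A30 (chromosome 22, 5638583 to 5658025) had 27.7, 28.3 and 29.4 CPM in the hypoxia libraries, against 42.6, 47.0 and 50.6 CPM in the normoxia libraries. The conditions were well apart (log2 fold change -0.71 ± 0.065, edgeR adjusted p = 6.46e-11), with 55.0% of the reads in introns and a change of -0.58 ± 0.086 from exon reads. SLC25A27, also called UCP4 and known mainly from brain, had 5.28, 6.16 and 4.57 CPM in the hypoxia libraries, against 3.24, 4.03 and 2.98 CPM in the normoxia libraries. The gap was narrow (log2 fold change 0.64 ± 0.17, edgeR adjusted p = 0.00222), 59.7% of its reads were unique, and the call was lost from uniquely mapped reads (0.38, edgeR adjusted p = 0.146) and from exon reads (0.39 ± 0.22, edgeR adjusted p = 0.148; adjusted p 9.85e-04 to 0.148 over all its 15 alternatives). Its model overlaps CYP39A1. SLC25A14 was not called (-0.16), but was called lower when scaled by library size alone (-0.23, edgeR adjusted p = 0.0287) and without normoxia replicate 3 (-0.22, edgeR adjusted p = 0.0495; adjusted p 0.0287 to 0.473 over all its 15 alternatives).

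SLC25A46, a family member of the outer membrane that acts in mitochondrial fission and fusion, had 76.9, 77.4 and 82.4 CPM in the hypoxia libraries, against 73.4, 72.4 and 72.3 CPM in the normoxia libraries. It was called slightly higher (log2 fold change 0.12 ± 0.046, edgeR adjusted p = 0.0356), without overlap. The call was lost with DESeq2, without the filter, from uniquely mapped reads, when scaled by library size alone (0.05, edgeR adjusted p = 0.372), from exon reads (0.07 ± 0.049, edgeR adjusted p = 0.270) and without hypoxia replicate 3, normoxia replicate 1, normoxia replicate 2 or normoxia replicate 3 (0.08 to 0.12, edgeR adjusted p 0.0621 to 0.169; adjusted p 0.0011 to 0.372 over all its 15 alternatives).

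Of the little characterised carriers, 2 of 4 tested members fell. SLC25A35 (chromosome 5, 33085537 to 33089021) had 3.23, 2.69 and 2.68 CPM in the hypoxia libraries, against 6.53, 7.78 and 4.53 CPM in the normoxia libraries. It had the lowest log2 fold change of all members, from a low level and with a wide normoxia spread (log2 fold change -1.14 ± 0.18, edgeR adjusted p = 3.78e-06), and its model overlaps RANGRF. SLC25A43, the highest of the group in TPM, had 38.7, 40.6 and 39.3 CPM under hypoxia, against 46.6, 43.9 and 47.1 CPM under normoxia, without overlap (log2 fold change -0.21 ± 0.057, edgeR adjusted p = 0.00228). SLC25A34 (-0.38) and SLC25A45 (-0.45) were not called, the second on 24 reads under hypoxia and 31 under normoxia.

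Exon and intron reads were compared to see whether the changes were present in both kinds of reads. Both kinds could be tested in 34 members. From exon reads 19 of 34 members were called, against 48.2% of all genes in that fit, with 2 members higher and 17 lower against 24.4% and 23.8%. From intron reads 16 of 35 members were called, against 34.4% of all genes, with 6 members higher and 10 lower against 18.7% and 15.7%. The median was -0.21 for exon reads and -0.05 for intron reads, against 0.00 and -0.01 over all genes in each fit. A call in the same direction from both kinds was found in 11 of these 34 members, and opposite calls in 0. How often either holds over all genes was not counted, so these 2 counts are descriptions only. Of the 24 called members, 8 were not called from intron reads, namely SLC25A1, SLC25A5, SLC25A6, SLC25A12, SLC25A15, SLC25A35, SLC25A42 and SLC25A43. Of these 8, 6 were lower in intron reads, while SLC25A1 (0.05 ± 0.091) and SLC25A5 (0.01 ± 0.17) were not. Introns held only 0.903% of the reads of SLC25A5 and 0.346% of those of SLC25A6, so that a lost call need not mean no change. How often a call was lost in this way over all genes was not counted either. Introns held a median of 31.3% of the reads of tested members and over 50% in 11 of them, and 19 of the 39 gene models overlap another gene in reads that do not mark the strand.

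**Figure D4:**
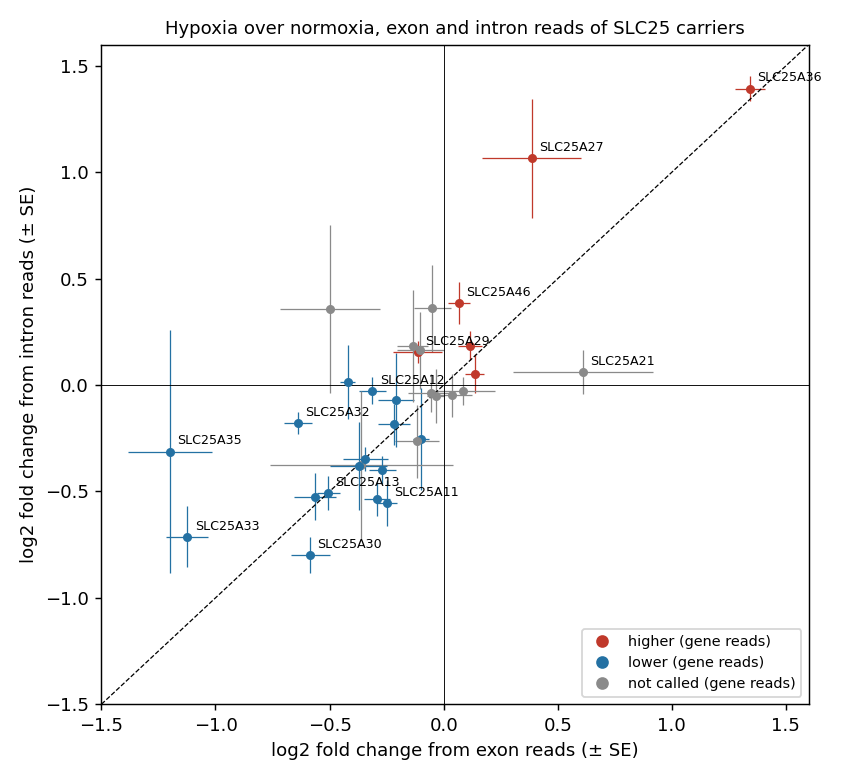
Log2 fold change of hypoxia over normoxia from exon reads (horizontal) and from intron reads (vertical), each ± SE of its own edgeR fit, for 33 of the 34 carriers in both fits, with colours for the call from all gene reads and a dashed line of equality. SLC25A36 is high on both axes at 1.34 and 1.39, SLC25A33 is low on both at -1.12 and -0.71, and SLC25A35 is low from exon reads with a wide error from its few intron reads.

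Family members under other symbols were few. Of 4 with a row, MTCH2, an outer-membrane insertase, fell (log2 fold change -0.35 ± 0.044, edgeR adjusted p = 6.90e-08) and the related MTCH1 rose (log2 fold change 0.13 ± 0.039, edgeR adjusted p = 0.00726), while UCP2 (-0.06) and UCP3 (0.25) were not called.

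In the import route of carriers, 6 of 10 measured genes fell and 2 rose, with a median log2 change of -0.19, where 24.4% of all genes tested were lower and 24.5% higher and their median was 0.00. TIMM8A, a small chaperone of the intermembrane space, averaged 23.0 ± 1.06 CPM under hypoxia and 40.8 ± 4.45 CPM under normoxia (log2 fold change -0.83 ± 0.072, edgeR adjusted p = 2.91e-11), and TOMM40, the pore of the outer membrane, averaged 53.2 ± 3.37 CPM under hypoxia and 89.2 ± 2.98 CPM under normoxia (log2 fold change -0.74 ± 0.051, edgeR adjusted p = 6.99e-14). TOMM20, a receptor of the same complex, was higher (log2 fold change 0.52 ± 0.046, edgeR adjusted p = 3.40e-11).

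Among 21 other transporters of mitochondrial membranes, 8 fell and 5 rose, with a median of -0.06, against the same 24.4% lower and 24.5% higher of all genes tested, so that the share of rises was near the background. The largest changes were in sideroflexins. SFXN1, a mitochondrial serine transporter, averaged 59.9 ± 3.06 CPM under hypoxia and 33.1 ± 2.59 CPM under normoxia (log2 fold change 0.85 ± 0.061, edgeR adjusted p = 2.45e-13), and SFXN2 averaged 15.5 ± 0.844 CPM under hypoxia and 24.8 ± 0.652 CPM under normoxia (log2 fold change -0.68 ± 0.078, edgeR adjusted p = 8.59e-09). The model of SFXN2 overlaps ARL3.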

How the data were processed

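Libraries of CMM10 cells, 3 kept under hypoxia and 3 under normoxia, were sequenced. Poly(A) RNA was selected on oligo dT beads, per the labels' protocols, and libraries were made with the NEBNext Ultra II RNA kit, which does not mark the strand, for paired-end sequencing on an Illumina NextSeq. The genome build was CanFam3.1, per the submitters' processing notes, and an aligner or counter is not given in the sources used here. The deposited counts are, per the file headers, reads per gene in exons and introns, total and uniquely mapped. TPM values, as deposited by the authors, were used only to set levels of genes side by side.

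Total gene reads were filtered by edgeR's filterByExpr (minimum count 10), which left 15397 of 29822 genes, scaled by TMM and tested by edgeR's quasi-likelihood test (robust, no covariates, all 6 libraries), with Benjamini-Hochberg adjustment over all genes tested and a threshold of 0.05. Log2 fold changes are hypoxia over normoxia with their SE, CPM use TMM-scaled library sizes, and SDs are over 3 libraries. Tools were edgeR 4.0.16 and DESeq2 1.42.0 under R 4.3.3, and matplotlib 3.10.9 under Python 3.11.15. On simulated counts with few changed genes, the test recovered most of the changes, and its share of false calls in that run was above the nominal threshold. In the data 49.0% of all genes tested were called, so that neither simulated share need hold for them. Replicates differed by more than sampling noise (chi-square per degree of freedom 4.29 to 13.7). Depth was 23196647 to 28804337 gene reads a library, so that counting error matters mainly for low genes.

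Groups came from the sample titles. The members and all lists were chosen with earlier results of these data known, so no list is independent support. Values in every library are given for called members with an absolute log2 fold change of at least 0.5 and a mean of at least 1 CPM, and for the member of highest TPM in each of 9 substrate groups. For a few other members such values were added after they had been seen. In each of the other lists, up to 2 called genes with the largest absolute change were named, with further examples chosen after their values were seen. Alternatives were other scalings, DESeq2, no filter, unique, exon and intron reads, each library left out, and a replicate block. A RefSeq gene table of a different dog assembly, and any genome, were not used here. The values of 1 tested member, which the counts include, are not reported here.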

Additional observations from a re-analysis of the deposited data

How the results depend on the processing

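Of the 24 called carriers, 15 kept their call and direction under each of the 14 alternatives other than intron reads in which they could be tested, and 9 lost it in at least 1; of the 12 not called, 4 were called in at least 1. SLC25A36, SLC25A33, SLC25A35, SLC25A13, SLC25A25, SLC25A30 and SLC25A5 were among the 15. How often a call was kept over all genes was not counted, so these counts are descriptions only. The count of members called higher, 7, became 3 with library size only, 2 from exon reads, 2 from uniquely mapped exon reads and 4 to 5 when single libraries were left out. The count called lower, 17, became 10 from intron reads and 14 to 18 when single libraries were left out, and 3761 genes lower over all genes became 2173 from intron reads. When single libraries were left out, 3416 to 3598 of all genes were higher, in place of 3778, and 3361 to 3585 were lower. The members' median of -0.19 became -0.25 with library size only, where the median of all genes was -0.07, and -0.05 from intron reads. Among called members, direction turned for SLC25A29 from exon reads (-0.11) and uniquely mapped exon reads (-0.11), and for SLC25A5 from intron reads (0.013, with 0.903% of its reads in introns). The causes were not tested. DESeq2 gave 5 members higher and 16 lower, and no filter 5 and 17. With the replicate number as a block the counts were again 7 and 17, and no member's call changed. Samples with the same number did not deviate together (r = -0.09, -0.01 and -0.03 for numbers 1, 2 and 3, across genes), and no library correlated best with its own number. Depth limits the tested members with the fewest reads, 55 to 732 over the 6 libraries, which were SLC25A45, SLC25A34, SLC25A48, SLC25A18, SLC25A27 and SLC25A35.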

Other observations

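A pair of carriers on chromosome X, SLC25A43 and SLC25A5, lie 13852 bases apart and were both lower under hypoxia, at -0.21 and -0.43 on the log2 scale. Among all tested members 47.2% were lower. SLC25A29 and SLC25A47 lie 17116 bases apart on chromosome 8, where SLC25A29 was called higher (0.11) and SLC25A47 was below the filter. SLC25A23 and SLC25A41, neighbours on chromosome 20 at a distance of 4793 bases, were both not called, at -0.01 and -0.03. In all, 5 members lie on the X chromosome.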
